A study of Mus musculus with 6 samples.

Results

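The genes described here are 10 genes of apoptotic-cell recognition, picked by name for their function from the 35275 genes of the count table. These genes and the gene lists below were chosen with earlier results of these data known. The shares of them that pass, beside those of all genes, are thus a description. They are the TAM receptor kinases Axl, Mertk and Tyro3, their ligands Gas6 and Pros1, the phosphatidylserine receptor Timd4, the bridging protein Mfge8, the macrophage protein Cd5l, and the receptor Trem2 with its signalling adaptor Tyrobp. Each symbol matched 1 gene identifier. They were compared between 3 GFP-positive and 3 GFP-negative libraries of liver cells that carry CD31. All 6 libraries came from p16-Cre/Rosa26-mTmG mice that were 1 year old. In these mice Cre under p16 control turns a membrane reporter of red fluorescence into a green one (GFP), so that a green cell, or a cell it came from, has used the p16 promoter. The label is permanent and does not say whether p16 is in use when the cells are taken. CD31-positive cells were enriched on magnetic beads and sorted by GFP before RNA sequencing. The libraries held 16766556 to 22627555 counts. No animal or batch is named in the labels, so each p-value reflects only how far these libraries scatter, and that scatter may be technical.

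Dying cells expose the lipid phosphatidylserine on their surface, and phagocytes that recognise it take them up, a process called efferocytosis. Gas6 and protein S, the product of Pros1, bind the lipid through a domain that vitamin K-dependent carboxylation activates, and they bridge it to the TAM receptors. TIM4, the product of Timd4, binds the lipid directly, and MFG-E8, the product of Mfge8, bridges it to integrins. In the liver, Kupffer cells, the resident macrophages of the sinusoids, clear dying cells with these receptors, and endothelial cells are known to make protein S and Gas6.

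CD31 is also carried by platelets and many leukocytes, and the sorted fractions held RNA of several cell types. Of 9 Kupffer cell markers all 9 were higher in GFP-positive libraries, with a median log2 fold change of 3.71. Their summed level was 12016 to 13485 CPM (counts scaled to a common library size) in GFP-positive libraries, against 823 to 1095 CPM in GFP-negative libraries. Of 12 pan-endothelial markers 7 were higher and 5 did not pass the test, with a median of 1.18 and a summed level of 4237 to 4890 CPM in GFP-positive libraries, against 2062 to 2250 CPM in GFP-negative libraries. Without GFP-negative library 2 or 3, 4 pan-endothelial markers were higher. Of 10 sinusoidal endothelial markers 8 were higher, with a median of 1.33 and a summed level of 11452 to 12646 CPM in GFP-positive libraries, against 4611 to 5318 CPM in GFP-negative libraries. Of 7 platelet markers 3 were higher, with a median of 1.24 and a summed level of 1684 to 1996 CPM in GFP-positive libraries, against 640 to 833 CPM in GFP-negative libraries. Of 6 tested stellate cell and fibroblast markers 1 was higher, with a median of 1.94. The whole list of 10 summed to 251 to 310 CPM in GFP-positive libraries, against 38.5 to 115 CPM in GFP-negative libraries. All 8 measured B cell markers were lower, with a summed level of 75.7 to 164 CPM in GFP-positive libraries, against 12232 to 13273 CPM in GFP-negative libraries. Of 14 tested macrophage and monocyte markers 11 were higher and 1 lower. That list summed to 16040 to 16618 CPM in GFP-positive and 1059 to 1429 CPM in GFP-negative libraries. T and NK cell markers, 1 of 8 tested lower, summed to 10.2 to 75.2 CPM in GFP-positive and 290 to 333 CPM in GFP-negative libraries. Dendritic cell markers, 1 of 7 tested lower (Ccr7), summed to 99.5 to 144 CPM in GFP-positive and 3085 to 3631 CPM in GFP-negative libraries. Hepatocyte markers summed to 1197 to 1556 CPM in GFP-positive and 2219 to 2560 CPM in GFP-negative libraries, and neutrophil markers to 17.9 to 29.2 CPM in GFP-positive libraries, against 5.27 to 12.0 CPM in GFP-negative libraries, with Ly6g at 0 counts in all 6 libraries. Cdkn2a, the gene that encodes p16, had 49 counts in all in GFP-positive libraries and 0 in GFP-negative libraries. In such bulk RNA, more cells of a type and more RNA per cell cannot be told apart, and the part of cell type makeup in the differences below was not tested.

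Transcripts of apoptotic-cell recognition were more abundant in the GFP-positive fraction. Of the 10 genes 9 passed the filter on low counts, 8 of these were higher in GFP-positive libraries, 0 were lower, and Trem2 did not pass the test. Tyro3 was too low to be tested. The test was edgeR's quasi-likelihood test at an adjusted p under 0.05, and of all 12122 genes tested 17.8% passed it, 7.65% as higher and 10.1% as lower. The log2 fold changes of the 9 genes, GFP-positive minus GFP-negative, ran from 0.85 to 4.24 with a median of 3.40, against a median of −0.09 over all genes tested. With 1 library left out, 6 or 7 of the genes passed. Axl, Gas6, Pros1, Timd4, Cd5l and Tyrobp passed in each of these fits, while Mertk and Mfge8 did not.

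**Figure D1:**
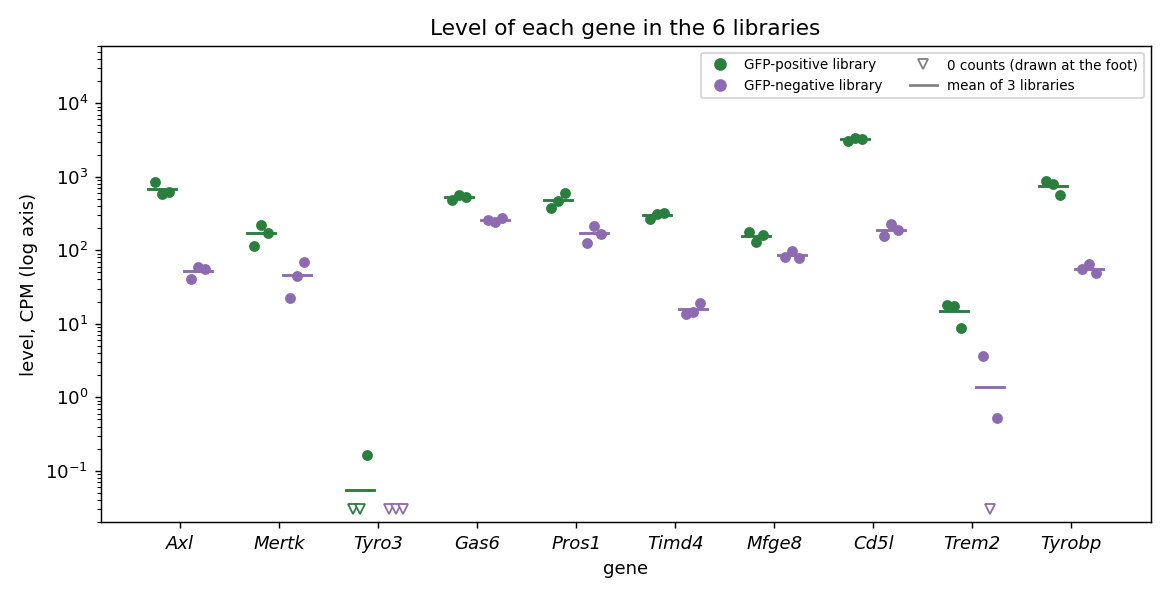
Level of each gene in CPM (log axis) in the 3 GFP-positive libraries (green, left of each pair) and the 3 GFP-negative libraries (purple, right), with horizontal lines for the means and open triangles for libraries with 0 counts. For all genes except Tyro3 the 3 GFP-positive libraries lie above the 3 GFP-negative ones. The share of all tested genes that lie apart in CPM is not given here, so this separation is a description only. Timd4 and Cd5l have means of 298 and 3232 CPM in GFP-positive libraries, against 15.7 and 191 CPM in GFP-negative libraries.

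Among the TAM receptors, Axl rose most, Mertk rose less, and Tyro3 was all but absent. Axl, a receptor kinase that Gas6 activates, stood at 838, 580 and 622 CPM in the GFP-positive libraries, against 40.9, 58.8 and 56.1 CPM in the GFP-negative libraries. The lowest GFP-positive library was far above the highest GFP-negative one. Axl rose by a log2 value of 3.71 ± 0.23 (SE, with edgeR's adjusted p = 0.000132), which is 13.1-fold. Mertk, the TAM receptor through which macrophages are known to engulf dying cells, stood at 113, 223 and 171 CPM in GFP-positive libraries, against 22.7, 44.3 and 69.3 CPM in GFP-negative libraries. The groups did not overlap, but relative to its mean Mertk varied within each group more than Axl did. Its log2 fold change was 1.89 ± 0.45 (adjusted p = 0.0297), and the call was lost without GFP-positive library 2 or 3 (adjusted p = 0.0833 and 0.0681) and without GFP-negative library 1 or 2 (0.0696 and 0.102). Tyro3, the TAM receptor best known from the nervous system, held 0, 0 and 3 counts in GFP-positive and 0 counts in all GFP-negative libraries. Both groups were at or under the limit of 3 counts that a count of 0 allows over a group, which is 0.0584 CPM for the GFP-positive and 0.0496 CPM for the GFP-negative group, so no fold is given. Such limits reflect counting error alone, since sequenced reads that carry no molecular identifier need not be separate molecules.

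The balance between Axl and Mertk differed between the fractions. Mertk counts were 13.4%, 38.4% and 27.5% of Axl counts in the GFP-positive libraries, against 55.4%, 75.3% and 124% in the GFP-negative libraries. All 3 GFP-positive values lay below all 3 GFP-negative values. The log2 ratio of Mertk to Axl was −2.05 ± 0.77 in GFP-positive and −0.32 ± 0.58 in GFP-negative libraries (SD, n = 3 each), a difference of −1.73. The exact permutation p (two-sided) was 0.1, the smallest that 3 libraries against 3 allow, or 0.4 adjusted over the 4 ratios compared, so the difference could not have reached 0.05. Divided by exon length, which allows levels of different genes to be compared, Axl stood at 135 ± 27.5 and Mertk at 38.9 ± 12.7 CPM per kilobase in GFP-positive libraries (SD, n = 3). In GFP-negative libraries they stood at 10.3 ± 1.91 and 10.5 ± 5.38 CPM per kilobase and their ranges overlapped. Mertk to Tyro3 gives no usable ratio, since Tyro3 was at 0 in 5 of 6 libraries.

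The promoters of Axl and Mertk are shown as a description, and their part in the changes was not tested. RefSeq's sequences on GRCm38.p6 were searched over the 250 bases before each start site, for 9 of the 10 genes, on both strands. The letters searched were GAGGAA (the core that PU.1 and other ETS factors bind), TGCTGA (the core of the MAF recognition element), AGGTCA (the core that nuclear receptors bind), TGANTCA (AP-1), GGGCGG (the GC box) and CACGTG (the E-box), and every match is in capitals, the reverse strand included. The Axl window, chr7:25788734-25788983 on the minus strand, held 1 GC box that begins 10 bases before the start site and 1 match to GAGGAA that begins 130 bases before it. The Mertk window, chr2:128698665-128698914 on the plus strand, held 3 GC boxes and no other match. GC boxes were in 6 of the 9 windows, those of Axl, Mertk, Tyro3, Gas6, Pros1 and Mfge8, and in 32.7% of all 32851 promoters of the same length. CACGTG was in 0 of the 9 and in 6.02% of all promoters.
Axl: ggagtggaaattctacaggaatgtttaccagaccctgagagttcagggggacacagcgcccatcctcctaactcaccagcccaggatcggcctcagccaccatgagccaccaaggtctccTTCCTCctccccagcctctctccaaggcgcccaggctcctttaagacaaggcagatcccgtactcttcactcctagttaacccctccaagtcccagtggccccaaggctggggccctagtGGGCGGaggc
Mertk: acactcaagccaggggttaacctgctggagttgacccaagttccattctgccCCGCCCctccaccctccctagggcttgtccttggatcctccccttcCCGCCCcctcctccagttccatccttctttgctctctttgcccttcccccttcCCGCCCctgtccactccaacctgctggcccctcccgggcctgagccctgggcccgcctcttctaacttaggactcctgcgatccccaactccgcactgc

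The TAM ligands rose by less than Axl. Gas6, the ligand that activates all TAM receptors, stood at 478, 565 and 537 CPM in GFP-positive libraries, against 257, 240 and 272 CPM in GFP-negative libraries. The groups were tight and did not overlap. The log2 fold change of Gas6 was 1.04 ± 0.13 (SE, with edgeR's adjusted p = 0.00239), or 2.05-fold. Pros1, which encodes protein S, an anticoagulant cofactor that also activates Mertk and Tyro3, stood at 376, 468 and 607 CPM in GFP-positive libraries, against 126, 216 and 168 CPM in GFP-negative libraries. The groups did not overlap, and the log2 fold change was 1.51 ± 0.26 (adjusted p = 0.0101), or 2.85-fold. The log2 ratio of Gas6 to Pros1 was 0.15 ± 0.28 in GFP-positive and 0.63 ± 0.44 in GFP-negative libraries (SD, n = 3 each), and the groups overlapped (two-sided exact permutation p = 0.3, adjusted 0.533 over the 4 ratios). Both ligands held more RNA per kilobase than Mertk in each fraction. Gas6 was at 207 ± 17.3 and Pros1 at 118 ± 28.5 CPM per kilobase in GFP-positive libraries, against 101 ± 6.24 and 41.6 ± 11 in GFP-negative libraries. Of the exonic bases of Gas6, 1.33% overlap exons of Tmem255b on the other strand, and the sources used here do not say whether counting used strand.

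With all 6 libraries in the fit, Timd4 and Cd5l had the largest log2 fold changes of the 9 tested genes, while without GFP-negative library 1 that of Trem2, which did not pass, was larger at 5.76. Timd4 stood at 264, 309 and 320 CPM in GFP-positive libraries, against 13.7, 14.6 and 19.0 CPM in GFP-negative libraries. On the log2 scale the difference was 4.24 ± 0.22 (SE, with edgeR's adjusted p = 5.9e-05), or 18.9-fold. Cd5l, a secreted scavenger-receptor cysteine-rich protein that tissue macrophages make and that promotes clearance of debris, stood at 3029, 3405 and 3262 CPM in GFP-positive libraries, against 157, 227 and 190 CPM in GFP-negative libraries. Its log2 fold change was 4.08 ± 0.16 (adjusted p = 2.5e-05), or 16.9-fold. Neither gene came near overlap between the fractions. Per kilobase, Cd5l was the highest of the 10 genes in GFP-positive libraries at 1587 ± 93.3 CPM (SD, n = 3), while in GFP-negative libraries it stood at 93.9 ± 17.3 and its range overlapped those of Gas6 and Tyrobp. Timd4 was at 137 ± 13.7 CPM per kilobase in GFP-positive libraries, where its range overlapped that of Axl, against 7.25 ± 1.3 in GFP-negative libraries.

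Shown next are the promoter windows of Timd4 and Cd5l, which had the largest log2 fold changes among the genes that passed the test. They were the 2 of the 9 windows that held TGCTGA, which 16.1% of all promoters held, and neither held a GC box. The Timd4 window, chr11:46810549-46810798 on the plus strand, held TGCTGA at 2 places, beginning 150 and 44 bases before the start site, and 1 match to AGGTCA 116 bases before it, letters that 14.0% of all promoters held. The Cd5l window, chr3:87357631-87357880 on the plus strand, held it on opposite strands 54 and 46 bases before the start site, and 1 match to GAGGAA 66 bases before it, letters that 23.3% of all promoters held. A match describes letters and is no measure of binding. The part of these letters, or of the factors named for them, in the changes was not tested. Among genes of MAF factors, Maf stood at 257 ± 23.7 CPM in GFP-positive libraries and 91.0 ± 23.8 CPM in GFP-negative libraries (SD, n = 3 each) and rose by 1.5 ± 0.24 on the log2 scale (SE, with edgeR's adjusted p = 0.00720).
Timd4: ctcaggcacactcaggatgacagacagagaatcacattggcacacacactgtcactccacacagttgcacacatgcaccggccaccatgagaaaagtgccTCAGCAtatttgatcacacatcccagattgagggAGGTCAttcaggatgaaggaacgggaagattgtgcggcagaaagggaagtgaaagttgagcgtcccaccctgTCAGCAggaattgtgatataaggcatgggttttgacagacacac
Cd5l: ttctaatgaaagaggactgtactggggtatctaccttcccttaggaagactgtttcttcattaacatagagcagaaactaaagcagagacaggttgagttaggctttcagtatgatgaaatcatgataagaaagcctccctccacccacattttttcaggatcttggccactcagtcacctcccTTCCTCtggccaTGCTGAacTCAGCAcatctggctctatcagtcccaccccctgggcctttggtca

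Mfge8 had the smallest change of the 9 tested genes. It stood at 177, 131 and 159 CPM in GFP-positive libraries, against 82.0, 98.7 and 78.3 CPM in GFP-negative libraries. The groups did not overlap, with a log2 fold change of 0.85 ± 0.20 (SE, with edgeR's adjusted p = 0.0291), or 1.80-fold. The call was lost in each fit that left out 1 library except the fit without GFP-positive library 2, with adjusted p from 0.0643 to 0.0988. Edil3, the close relative of Mfge8 that also bridges phosphatidylserine to integrins, held 0 counts in GFP-positive and 2, 1 and 1 counts in GFP-negative libraries. Of the integrin subunits that Mfge8 is known to bind, Itgb5 rose by a log2 fold change of 2.77 (adjusted p = 0.00262), Itgb3 had a value of 1.92 that did not pass (0.0848) and Itgav one of −0.14 (0.946). These 4 genes were picked for their link to Mfge8 after their values had been seen.

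Tyrobp was among the most abundant of the genes and Trem2 among the least. Tyrobp encodes DAP12, an adaptor that passes signals from Trem2 and other myeloid receptors to the kinase Syk. It stood at 866, 784 and 562 CPM in GFP-positive libraries, against 54.8, 64.8 and 48.7 CPM in GFP-negative libraries. The groups did not overlap, and its log2 fold change was 3.72 ± 0.22 (SE, with edgeR's adjusted p = 0.000125), or 13.1-fold. Trem2, a lipid receptor of macrophages that is known to mark lipid-associated macrophages, stood at 18.0, 17.7 and 8.64 CPM in GFP-positive libraries, against 3.67, 0 and 0.522 CPM in GFP-negative libraries. The GFP-negative libraries held 71, 0 and 12 counts and scattered widely, and although the groups did not overlap, the log2 fold change of 3.40 ± 1.73 did not pass the test (adjusted p = 0.244). Without GFP-negative library 1 it was 5.76 (adjusted p = 0.142). Trem2 counts were 2.08%, 2.26% and 1.54% of Tyrobp counts in GFP-positive libraries, against 6.70%, 0% and 1.07% in GFP-negative libraries, which overlapped (two-sided exact permutation p = 0.7, adjusted 0.7 over the 4 ratios). Per kilobase Trem2 was at 2.99 ± 1.08 and Tyrobp at 1105 ± 236 CPM in GFP-positive libraries, against 0.283 ± 0.401 and 84.1 ± 12.2 in GFP-negative libraries (SD, n = 3 each).

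**Figure D2:**
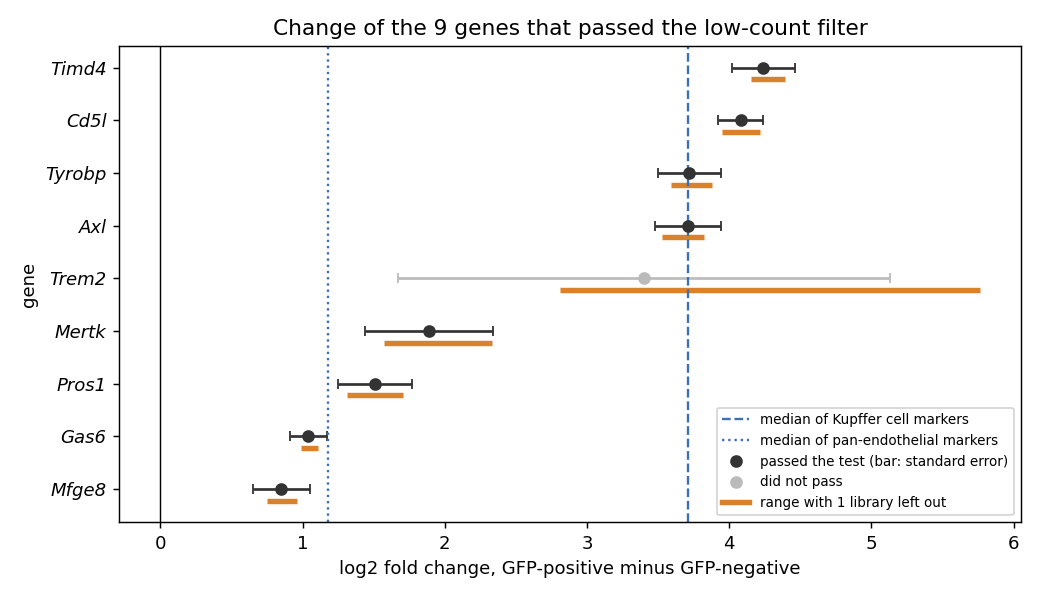
Log2 fold change (GFP-positive minus GFP-negative, horizontal axis) of the 9 tested genes, with standard errors as thin bars, the range over fits with 1 library left out as orange bars, and blue lines at the medians of the Kupffer cell (dashed) and pan-endothelial (dotted) markers. Timd4, Cd5l, Tyrobp and Axl lie at 3.71 to 4.24, at or above the Kupffer cell median of 3.71, Trem2 at 3.40 with a wide error, Mertk at 1.89, and Pros1, Gas6 and Mfge8 at 0.85 to 1.51, a range that holds the pan-endothelial (1.18), platelet (1.24) and sinusoidal (1.33) medians. The median of the 6 tested stellate cell and fibroblast markers was 1.94.

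The levels of the genes were also set against 2 lists of cell type markers measured in the same library. The difference between the fractions in such a level is the gene's log2 change less that of the summed markers, so it restates the fold changes on the scale of each list and is no further evidence for them. Relative to the summed CPM of the 9 Kupffer cell markers, Axl and Tyrobp hardly differed between the fractions. The log2 value of Axl was −4.24 ± 0.35 in GFP-positive and −4.23 ± 0.13 in GFP-negative libraries (SD, n = 3 each), and that of Tyrobp −4.13 ± 0.41 in GFP-positive libraries and −4.11 ± 0.33 in GFP-negative libraries. In both the fractions overlapped (two-sided exact permutation p = 1 each). Timd4 was higher per unit of these markers, at −5.42 ± 0.08 in GFP-positive libraries against −5.95 ± 0.13 in GFP-negative libraries, a difference of 0.53. So was Cd5l, at −1.98 ± 0.07 in GFP-positive libraries against −2.35 ± 0.20 in GFP-negative libraries, a difference of 0.37. In each the 3 GFP-positive libraries lay above the 3 GFP-negative ones (two-sided exact permutation p = 0.1, the smallest possible). Of all 12122 genes 0.577% lay wholly higher in this way. The 9 markers themselves had log2 fold changes from 2.89 to 4.48, a range that holds Timd4 at 4.24 and Cd5l at 4.08. Their excess is thus over the sum of the markers, not over each marker. Mertk, Gas6, Pros1 and Mfge8 lay wholly lower, by log2 differences of −1.74, −2.69, −2.21 and −2.88 (p = 0.1 each in the exact test), as did 85.4% of all genes. Trem2 overlapped, at a difference of 1.48 that was −0.44 without GFP-negative library 2.

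Relative to the summed CPM of the 12 pan-endothelial markers, Gas6 and Mfge8 differed least between the fractions. The log2 value of Gas6 was −3.09 ± 0.13 in GFP-positive and −3.09 ± 0.12 in GFP-negative libraries (SD, n = 3 each), and that of Mfge8 −4.86 ± 0.25 in GFP-positive libraries and −4.67 ± 0.17 in GFP-negative libraries. Both overlapped (two-sided exact permutation p = 1 and p = 0.3). Pros1 was at −3.24 ± 0.24 in GFP-positive libraries against −3.72 ± 0.33 in GFP-negative libraries. Mertk was at −4.79 ± 0.47 in GFP-positive libraries against −5.73 ± 0.75 in GFP-negative libraries, and both genes overlapped between the fractions (exact p = 0.2 each). Axl, Timd4, Cd5l and Tyrobp lay wholly higher, by log2 differences of 2.67, 3.21, 3.06 and 2.66 (exact p = 0.1 each), as did 4.26% of all genes tested, while 50.1% lay wholly lower. Without GFP-positive library 1, 7 genes lay wholly apart in place of 4. Pecam1, which encodes the CD31 used to collect the cells, is among these markers. With 3 libraries against 3 no such difference can pass 0.05, and a p above it does not show that a level was the same.

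**Figure D3:**
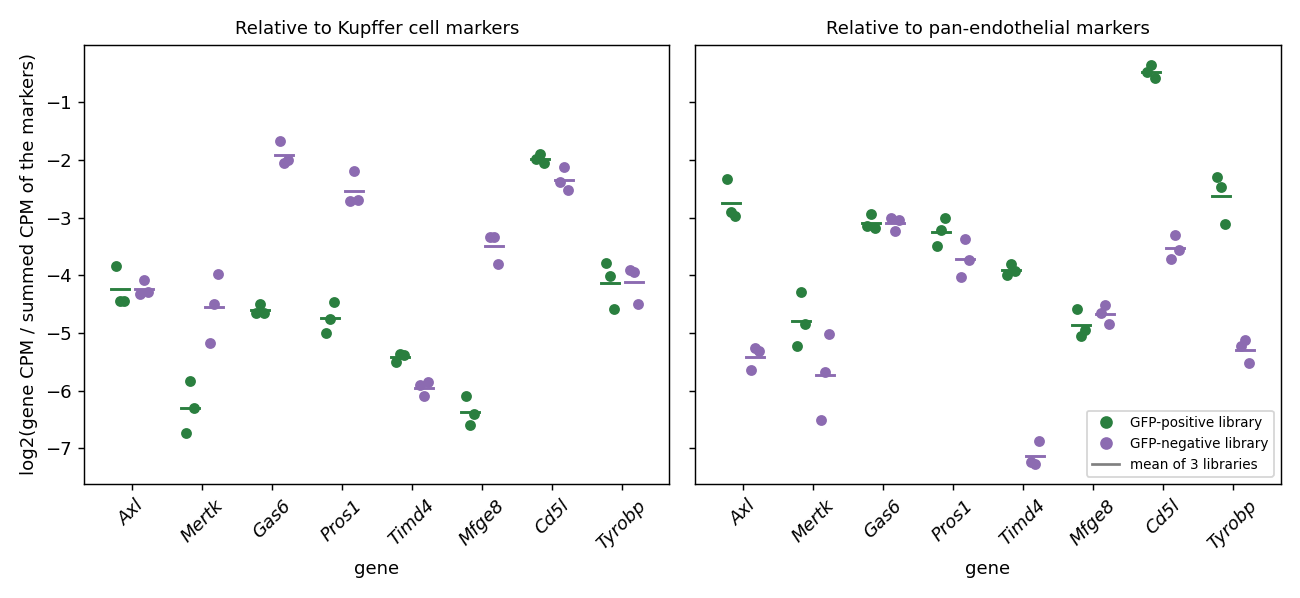
Log2 of each gene's CPM over the summed CPM of the Kupffer cell markers (left panel) or the pan-endothelial markers (right panel) in each of the 3 GFP-positive (green) and 3 GFP-negative (purple) libraries, with lines for means and Trem2 left out. Axl and Tyrobp overlap between the fractions on the left and Gas6, Mfge8, Pros1 and Mertk on the right, while Timd4 and Cd5l lie higher in GFP-positive libraries in both panels.

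The genes with the most similar profiles over the 6 libraries are given as a description. Likeness was the root mean square difference of log2 CPM, each profile centred on its mean, over the 6528 genes whose log2 CPM averaged 4 or more. With 2 groups of libraries, the nearest gene is by construction one with a similar fold change, so these names add no support to the fold changes above. The nearest genes to Axl were C1qc, a chain of complement C1q, at 0.157 and Aif1, a macrophage protein, at 0.163. Nearest to Timd4 was Clec4f, a lectin of Kupffer cells, at 0.124, and C1qa followed at 0.181. Nearest to Cd5l was Clec4n, a myeloid lectin, at 0.112, and nearest to Tyrobp was Wfdc17 at 0.111. Gas6 was nearest to Tnfaip1 at 0.0554 and to Timp3, a metalloproteinase inhibitor, at 0.0970. Pros1 was nearest to Itgb1, an integrin chain, at 0.134, Mfge8 to Sh3bp5 at 0.0994, and Mertk to Tmem47 at 0.245 and Adamts1, a matrix protease, at 0.272. No gene came near Trem2, whose closest profile, that of Plxnb2, was 1.20 away.

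Of 30 other receptors and bridging proteins for dying cells 23 were tested and 7 were too low. Of those tested 15 were higher, 0 lower and 8 did not pass, with a median log2 fold change of 2.23, beside 7.65% higher and a median of −0.09 over all genes tested. At an unadjusted p under 0.05 edgeR gave 17 higher and 0 lower, as did DESeq2 with its adjusted p. The C1q chains, which coat dying cells, had the smallest p-values of the list: C1qa by a log2 fold change of 3.92 ± 0.17, C1qb by 3.87 ± 0.16 and C1qc by 3.76 ± 0.15 (SE, with edgeR's adjusted p = 3.7e-05, 3.3e-05 and 2.5e-05). Lgals3, a lectin that also binds Mertk, rose by 3.39 ± 0.21 (adjusted p = 0.000132). The stabilins Stab1 and Stab2, phosphatidylserine receptors of sinusoidal endothelium, passed with smaller values of 1.39 and 1.34. Kupffer cell markers in the same libraries had a median of 3.71, and their part in these values was not tested. Adgrb1 and Havcr1, phosphatidylserine receptors of other tissues, and Megf10 held 0 counts in all 6 libraries.

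The engulfment machinery inside the cell changed in both directions. Of 18 tested members 3 were higher, 6 lower and 9 did not pass, with a median of −0.13. This stands beside 7.65% higher and 10.1% lower over all genes tested. Rac1, the GTPase that drives the phagocytic cup, rose by 0.76 ± 0.11 (SE, with edgeR's adjusted p = 0.00580). Its haematopoietic relative Rac2 had a log2 fold change of −1.65 ± 0.11 (adjusted p = 0.000153), and the exchange factor subunits Dock2 and Elmo1 had values of −3.99 ± 0.41 and −3.01 ± 0.35 (adjusted p = 0.00117 and 0.00217). Lymphocytes use these 3 genes too. In the same libraries B cell markers had a median of −6.98 and T and NK cell markers one of −4.06, and their part was not tested. Without GFP-negative library 1 or 2, 1 member was higher, and without GFP-negative library 2 or 3, 3 were lower.

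In the list of the TREM family, DAP12 partners and signalling, 4 of 17 tested genes were higher, 2 lower and 11 did not pass, with a median of 0.43. All genes tested gave 7.65% higher and 10.1% lower. Treml4, a myeloid receptor that binds dying cells and signals through DAP12, stood at 191 ± 24.2 CPM in GFP-positive libraries and 14.6 ± 6.15 CPM in GFP-negative libraries (SD, n = 3 each), with a log2 fold change of 3.71 ± 0.35 (SE, with edgeR's adjusted p = 0.000893). Fcer1g, an adaptor related to Tyrobp, rose by 2.64 ± 0.16 (adjusted p = 0.000132) and Apoe, a lipid carrier that Trem2 binds, by 1.74 ± 0.07 (adjusted p = 2.5e-05). Syk, the kinase below Tyrobp that B cells also need, had a log2 fold change of −3.73 ± 0.25 (adjusted p = 0.000187), beside the B cell marker median of −6.98. Trem1 held 0 counts in every GFP-positive library, against 122, 0 and 0 counts in GFP-negative libraries, and Trem3 held 0 in all 6. Without GFP-positive library 3, 4 genes of this list were lower.

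Among nuclear receptors and regulators of clearance, 2 of 14 tested genes were higher, 1 lower and 11 did not pass, with a median of 0.57. Over all genes 17.8% passed, so the count lies near that share. DESeq2 gave 5 higher and 1 lower, as did edgeR at an unadjusted p under 0.05. Beside Maf, named above, Nr1h3, the oxysterol receptor LXR alpha that is known to induce Mertk in macrophages, rose by 3.56 ± 0.74 (SE, with edgeR's adjusted p = 0.0198). It stood at 321 ± 21.9 CPM in GFP-positive libraries and 27.2 ± 21.2 CPM in GFP-negative libraries (SD, n = 3 each), and the call was lost without GFP-negative library 2 (adjusted p = 0.0825). The lower gene, Tgfb1, had a value of −0.82 ± 0.18 (adjusted p = 0.0216). Its call was lost without GFP-positive library 2 (0.0610) or without GFP-negative library 1, 2 or 3 (0.0714, 0.0874 and 0.0585). Spic, a transcription factor of iron-handling macrophages, had a value of 4.19 ± 1.23 that did not pass (adjusted p = 0.0582).

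Among genes that shed TAM receptors or act below them, 1 of 13 tested was higher, 3 were lower and 9 did not pass, with a median of 0.15. Over all genes tested the shares were 7.65% higher and 10.1% lower. The proteases Adam10 and Adam17, which cleave Axl and Mertk from the surface, did not pass, at adjusted p = 0.714 and 0.530. Ptpn11, a phosphatase, had a log2 fold change of 1.35 ± 0.27 (SE, with edgeR's adjusted p = 0.0173), a call lost without GFP-positive library 1 (0.0514) or GFP-negative library 2 (0.0655). Socs3, a feedback inhibitor that TAM signalling is known to induce, had a value of −2.10 ± 0.57 (adjusted p = 0.0444). It lost its call in each fit that left out 1 library except the fit without GFP-positive library 3, as did Grb2 at −1.06 ± 0.26 (0.0334), while Ifnar1 at −1.59 ± 0.41 (0.0376) kept it only without GFP-positive library 2. Without GFP-positive library 3, 2 genes of the list were higher. The vitamin K cycle activates Gas6 and protein S, and its list here also holds clotting proteins that are not part of the cycle. Of 7 tested genes of this list 0 were higher and 0 lower by edgeR, with a median of 0.05. At an unadjusted p under 0.05 edgeR gave 0 in either direction, as did DESeq2 with its adjusted p.

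**Figure D4:**
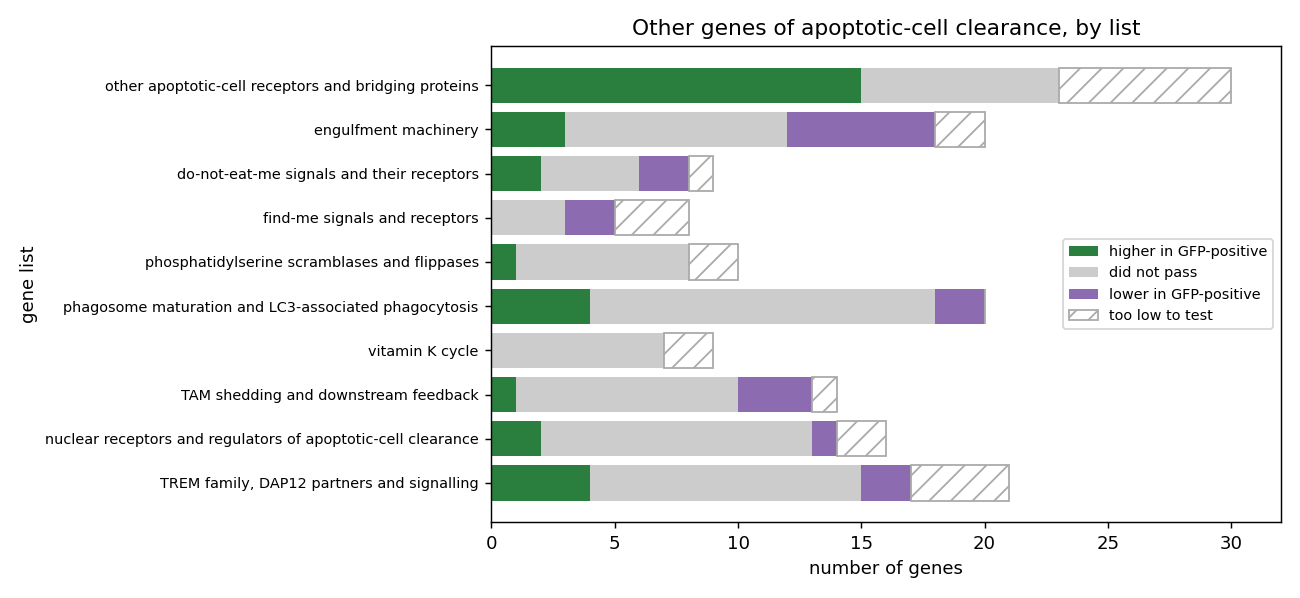
Number of genes in each list of apoptotic-cell clearance (horizontal axis) that were higher in GFP-positive libraries (green), did not pass the test (grey), were lower (purple) or were too low to test (hatched). The list of other receptors and bridging proteins has 15 genes higher and 0 lower, and the engulfment machinery 3 higher and 6 lower.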

How the data were processed

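RNA of 6 libraries was sequenced after poly-A selection. The authors deposited 1 table of raw counts for 35275 Ensembl genes, and the labels give each library's sorted group. edgeR, RSEM, HTSeq 0.6.1, TopHat2 2.0.12, Bowtie2 2.2.3 and DESeq 1.18.0 appear, with no role, in the submitters' processing notes. No genome build, annotation or strand setting was found in the sources used here. Per the labels' protocols the enriched cells were also cultured in endothelial medium, and whether these libraries precede that culture is not given there. Symbols matched 34490 identifiers.

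In R 4.3.3, genes were kept by edgeR 4.0.16's filter with a minimum count of 10, scaled by TMM and tested by its quasi-likelihood test, with p-values of all 12122 genes adjusted by Benjamini-Hochberg. The test statistic gave the standard errors. Biological variation (the common coefficient) was 0.816. The script was tested on simulated data. No 2 replicates agreed within sampling noise (chi-square over its degrees of freedom at least 77.4). Levels per kilobase use merged exon lengths of GENCODE M21, which may not be the authors' annotation, so a gene's length, and its rank, could differ under theirs. Merging joins the exons of all transcript forms of a gene. A length can thus exceed that of the form present, which lowers the level per kilobase. Ratios add 0.5 counts to each gene. Marker lists hold none of the 10 genes.

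The 10 genes and all lists were chosen with earlier results of these data known. The genes named are the 10, up to 4 of each list with the smallest p, up to 2 most abundant of each marker list and the 2 nearest profiles, while Stab1, Stab2, Edil3, the integrins, Adam10, Adam17, Cd47 and the genes at 0 counts were named after their values were seen. The alternatives were other scalings, DESeq2 1.42.0, other filters, lymphocyte genes left out and each library left out.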

Additional observations from a re-analysis of the deposited data

How the results depend on the processing

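Under other scalings, DESeq2's Wald test, other filters on low counts and removal of lymphocyte genes, the same 8 of the 10 genes passed in each case, while the number of all genes past the test was 1751 to 3225, against 2157. Leaving out 1 library gave 994 to 1810 genes, with 994, 1027 and 1045 without GFP-negative library 1, 2 and 3, and 6 to 7 of the 10 genes. The log2 fold change was 1.57 to 2.33 for Mertk, 0.75 to 0.96 for Mfge8, 3.53 to 3.82 for Axl, 4.15 to 4.39 for Timd4, 3.95 to 4.22 for Cd5l, 3.59 to 3.88 for Tyrobp, 0.99 to 1.11 for Gas6, 1.31 to 1.71 for Pros1 and 2.81 to 5.76 for Trem2. Leaving out 1 library also gave a difference of −2.06 to −1.31 in the log2 ratio of Mertk to Axl, 6 to 7 genes apart relative to Kupffer cell markers and 4 to 7 relative to pan-endothelial markers. The cause was not tested, though fewer libraries enter these fits. With the mean of the markers' log2 CPM in place of their sum, the Gas6 difference relative to pan-endothelial markers was −0.16 and 4 genes lay apart. No paired analysis was possible because the labels carry no shared replicate number. Tyro3 has no value under the filter, and its 3 counts in all set no limit beyond counting error. Trem2 held 71, 0 and 12 counts in GFP-negative libraries of similar totals, and the cause of this scatter was not tested.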

Other observations

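Genes by which cells attract phagocytes or hold them off are read beside 7.65% higher and 10.1% lower over all genes tested. Of 5 tested find-me signals and receptors 2 were lower, 0 higher and 3 did not pass, with a median log2 fold change of −1.47. S1pr1, a sphingosine 1-phosphate receptor of lymphocytes and endothelium, averaged 59.9 ± 9.34 CPM in the GFP-positive and 653 ± 76.5 CPM in the GFP-negative group (SD, n = 3 each), with a log2 fold change of −3.45 ± 0.18 (SE, with edgeR's adjusted p = 6.7e-05). Gpr132, a lysolipid receptor, held 78, 1 and 0 counts in GFP-positive libraries, against 1638, 1969 and 2754 counts in GFP-negative libraries (adjusted p = 0.0462), and lost its call in each fit that left out 1 library except the fit without GFP-positive library 1. Of 8 tested do-not-eat-me signals and receptors 2 were higher, 2 lower and 4 did not pass, with a median of 0.39, while DESeq2 gave 4 higher and 3 lower. Siglecg had the smallest p of this list (edgeR's adjusted p = 0.000142). It held 0 counts in every GFP-positive library, against 158, 217 and 203 CPM in GFP-negative libraries. Sirpa, the receptor by which macrophages read CD47, rose by 2.07 ± 0.22 (adjusted p = 0.00138), and Cd24a had a value of −4.49 ± 0.34 (adjusted p = 0.000328). Cd47 itself did not pass (adjusted p = 0.0905). B cell markers in the same libraries had a median of −6.98 and T and NK cell markers one of −4.06, and their part in these values was not tested.

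Of 20 tested genes of phagosome maturation 4 were higher, 2 lower and 14 did not pass, with a median of 0.30. The lists here too are read beside 7.65% higher and 10.1% lower over all genes tested. The lysosomal genes Ctsd, Lamp2 and Lamp1 rose by 1.93 ± 0.12, 1.46 ± 0.09 and 1.05 ± 0.13 (SE, with edgeR's adjusted p = 0.000130, 0.000139 and 0.00295). Rubcn, which LC3-associated phagocytosis needs, had a value of −1.15 ± 0.21 (adjusted p = 0.0131), a call lost without GFP-negative library 1 (0.0563) or 3 (0.0515). Without GFP-negative library 3, 0 genes of this list were lower, and without GFP-positive library 1 or GFP-negative library 1 or 2, 1 was. Of 8 tested phosphatidylserine scramblases and flippases 1 was higher, Plscr3 at 1.08 ± 0.22 (adjusted p = 0.0177), and this call was lost without GFP-positive library 2 or GFP-negative library 2 or 3 (0.0513, 0.0665 and 0.0573).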
